A study of Mus musculus with 6 samples.

Results

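The nuclear-encoded subunits of oxidative phosphorylation were taken from the deposited gene table by their symbols: the Nduf, Sdh, Uqcr, Cox4 to Cox8 and Atp5 families with Cyc1 and Cycs. The rule took 86 of 52550 genes, 37 of complex I, 4 of complex II, 9 of complex III, 18 of complex IV, 17 of complex V and cytochrome c itself. A symbol is not proof of a role. Atp5sl is now known as an assembly factor of complex I, Ndufa4 as a subunit of complex IV and Cox7a2l as a factor that joins complexes III and IV. They are kept here under the complex that their symbol names. RNA was sequenced from macrophages grown from C57BL/6 mouse bone marrow for 7 days in M-CSF, the growth factor of macrophages, at 25 ng/ml. All cells had this background. The first group of 3 libraries received culture medium from normal chondrocytes (C CM) and the second group of 3 libraries culture medium from apoptotic chondrocytes (AC CM). The labels name neither the age of the mice nor whether replicates came from separate animals or cultures, so the p-values measure only the spread between these libraries, which may be technical.

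Complexes I and II pass electrons from NADH and succinate to coenzyme Q, complex III hands them to cytochrome c, and complex IV gives them to oxygen. The proton gradient that complexes I, III and IV build drives complex V, the ATP synthase. Macrophages are known to shift between this pathway and glycolysis with their state of activation, and cytochrome c that leaks from mitochondria switches on the caspase-activating apoptosome.

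Gene counts summed to between 65630784 and 80105872 per library. Levels are given as CPM, which sets counts against the library size, here corrected by the trimmed mean of M-values (TMM), values after ± are SD over n = 3 libraries, and SE is the standard error of a log2 fold change. A positive log2 fold change means a higher level after AC CM. A gene was called where edgeR's quasi-likelihood test gave a Benjamini-Hochberg adjusted p under 0.05 over all 17863 genes tested. The defining macrophage genes were abundant in every library, and 1 of 12 macrophage markers was called higher and 4 lower after AC CM, with a summed level of 22045 to 23454 CPM in C CM and 20558 to 21099 in AC CM. Over all genes tested, 13.3% were called higher and 13.3% lower. Most markers of other blood cells were called lower: 10 of 12 neutrophil genes tested (917 to 1065 CPM summed in C CM, 202 to 216 in AC CM), 8 of 9 dendritic cell genes (59.95 to 72.3 against 15.3 to 17.3) and 9 of 10 lymphocyte genes (169 to 195 against 29.1 to 33.1). Not called were Retnlg and Mmp8 of the neutrophil genes (log2 fold change -0.17 and -0.01), Xcr1 (-1.28) and Trbc2 (-2.17). The summed level of 14 hepatocyte genes was 556 to 641 CPM in C CM and 378, 992 and 1853 CPM in AC CM replicates 1, 2 and 3. Most of the C CM sum was the transferrin gene Trf (552, 534 and 515 CPM in C CM; 304, 349 and 406 CPM in AC CM). Alb, the albumin gene, was at 30.1, 1.32 and 0.254 CPM in C CM replicates 1, 2 and 3 and at 38.1, 469 and 971 CPM in AC CM replicates 1, 2 and 3. Of the 13 hepatocyte genes tested 1 was called higher and 1 lower, with a median log2 fold change of 5.29. Of 10 chondrocyte genes, 6 could be tested and 1 was called higher, with 72.1 to 84.1 CPM summed in C CM and 108 to 111 in AC CM, and Cnmd was at 0 in every library. The part of these other transcripts in the results below was not tested, and in bulk RNA fewer cells of a type and less RNA per cell cannot be told apart.

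Most of the oxidative phosphorylation genes differed little between the groups. Of the 86 genes, 83 could be tested and 9 were called, 3 higher and 6 lower after AC CM. That is 10.8% of those tested, while 26.5% of all genes tested were called, 13.3% in each direction. Among genes of at least 10 CPM on average, 9 of 77 subunit genes were called beside 36.2% of all such genes. The median log2 fold change was -0.008 for the subunit genes and -0.005 for all genes tested, and 96.4% of the subunit genes lay within 0.5 of 0 against 69.6% of all genes. At an unadjusted p under 0.05 there were 22 of the 83 subunit genes, against 38.2% of all genes tested. The groups did not overlap in 34.9% of the subunit genes tested, against 44.7% of all genes tested. Only Cycs and Ndufs5 had a fitted change of 2-fold or more, and that of Ndufs5 was -0.25 on the log2 scale and not called once its pseudogene was counted with it. Of all genes tested, 6.24% were called with a change of at least 2-fold. The authors' deposited table calls the same 9 genes in the same direction and adds Ndufb6 as higher and Cox5a as lower.

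**Figure D1:**
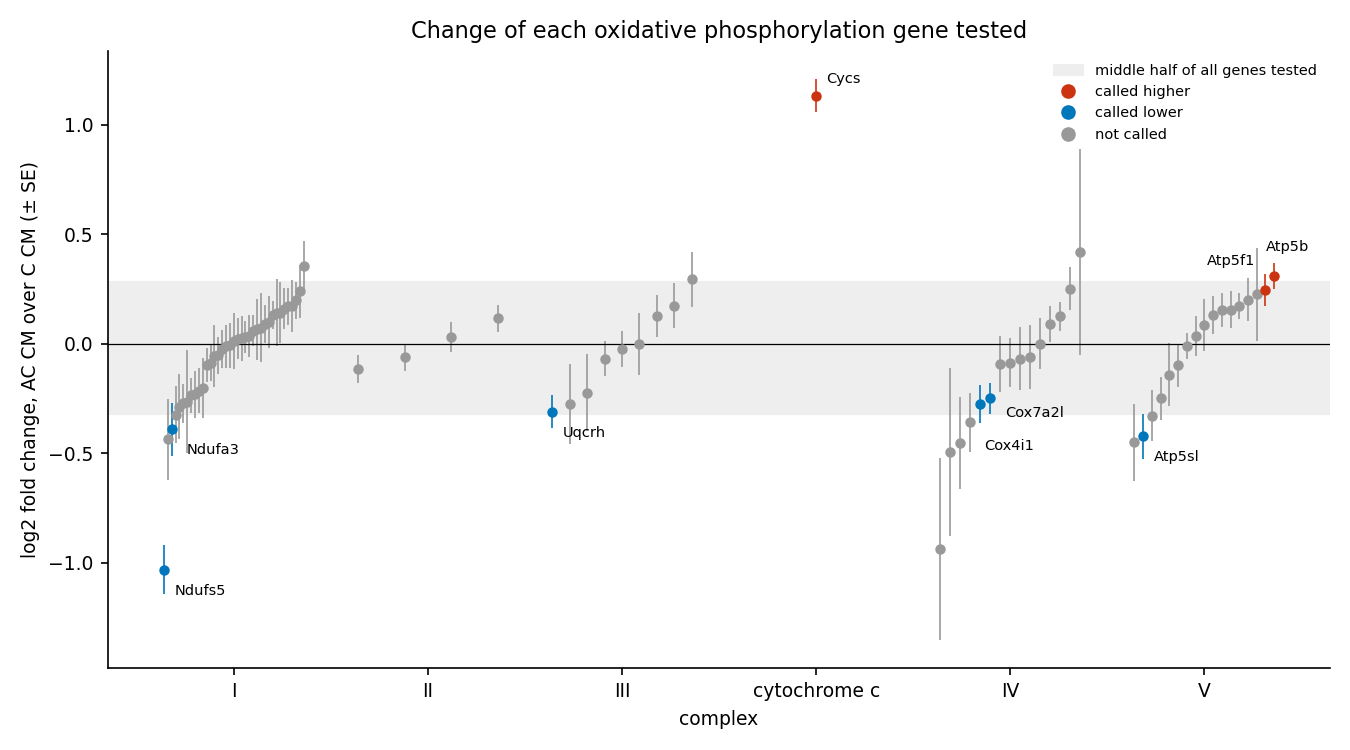
Log2 fold change (AC CM over C CM, ± SE) of the 83 genes tested, grouped by complex on the horizontal axis. Red and blue points passed an adjusted p under 0.05, grey points did not, and the band spans the 25th to the 75th percentile of all genes tested (-0.32 to 0.28). Cycs lies at 1.13 and Ndufs5 at -1.03, or at -0.25 and not called when its near-identical copy is counted with it.

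Cycs encodes cytochrome c, the small heme protein that carries electrons between complexes III and IV. Its level was 35.4, 39.8 and 37.8 CPM in C CM replicates 1, 2 and 3 and 86.1, 79.0 and 82.9 CPM in AC CM replicates 1, 2 and 3. Every AC CM library lay above every C CM library. The mean was 37.7 ± 2.21 against 82.6 ± 3.56 CPM, a log2 fold change of 1.13 (SE 0.08, edgeR adjusted p = 1.93e-05), and the gene was called under each of 21 alternative settings with log2 fold changes of 1.06 to 1.19. Cycs lies on chromosome 6 from 50562563 to 50566538 on the minus strand. Intronless copies of cytochrome c are scattered over mammalian genomes, and 4 entries matched its coding stretch. Gm10053 on chromosome 19 is identical over all 315 coding bases and had 179, 249 and 169 counts in C CM and 510, 566 and 534 in AC CM. Gm10108 on chromosome 5 differs at 2 bases and had 76, 81 and 91 counts in C CM and 217, 226 and 247 in AC CM. Both copies were called higher, by 1.26 (SE 0.18, edgeR adjusted p = 0.00101) and 1.30 (SE 0.20, edgeR adjusted p = 0.0017) on the log2 scale. How reads shared by Cycs and its copies were assigned is not given in the sources used here. The copies are therefore not separate evidence of a rise, and the value of each entry alone is uncertain. With the counts of all 4 copies added, Cycs came to 41.9 ± 2.70 CPM in C CM and 92.8 ± 3.56 CPM in AC CM, with an edgeR adjusted p of 1.74e-05.

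The Cycs promoter is printed because this gene had the largest change among the subunit genes. The run holds the 250 bases before the RefSeq start site (GRCm38.p6, chr6:50566570-50566819, minus strand, 5′ to 3′), with matches to the searched motifs in capitals.
Cycs: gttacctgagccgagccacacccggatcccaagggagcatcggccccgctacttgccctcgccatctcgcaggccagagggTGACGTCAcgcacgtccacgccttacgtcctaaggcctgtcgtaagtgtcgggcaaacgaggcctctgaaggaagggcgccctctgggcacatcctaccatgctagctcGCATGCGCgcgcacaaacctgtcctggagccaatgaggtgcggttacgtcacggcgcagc
The first run of capitals, 169 to 162 bases before the start, is TGACGTCA, the palindromic cyclic AMP response element. The second, 60 to 53 bases before it, is GCATGCGC, the core of the site known for nuclear respiratory factor 1 (NRF1). In all, 7 motifs were searched on both strands in windows of 250 bases before to 50 after the start, in 67 of the 86 genes that matched the RefSeq table and in all 27025 genes of it. The letters were chosen with this promoter in view, and the short NRF1 core was added after a longer palindromic form that contains it was not found in Cycs. TGACGTCA was in 5 of the 67 (7.46%, against 2.03% of all genes) and GCATGCGC in 11 (16.4% against 3.05%). Cycs itself is among both the 5 and the 11. The 27025 genes were not limited to those expressed here, so an enrichment of any motif was not tested. The longer NRF1 form was in 5 (7.46% against 1.07%), the ETS motif CCGGAAG in 16 (23.9% against 9.93%) and the YY1 motif in 4 (5.97% against 0.755%). CACGTG was in 5 (7.46% against 8.09%) and GGGCGG in 27 (40.3% against 38.2%). Of these others Cycs held only GGGCGG, in the part of the window after the start. The matches describe these letters and are not evidence of binding. The promoter of Ndufa11, a complex I subunit gene, also held both TGACGTCA and GCATGCGC. Its log2 fold change was 0.24 (SE 0.12, edgeR adjusted p = 0.185).

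Complex V had the highest summed level of the groups. Among its 17 genes 2 were called higher (11.8%, against 13.3% of all genes tested). Atp5b encodes the beta subunit, where ATP is made. It was at 496, 478 and 452 CPM in C CM and 591, 586 and 590 CPM in AC CM. The groups did not overlap, and the log2 fold change was 0.31 (SE 0.06, edgeR adjusted p = 0.00462), with 0.31 and an adjusted p of 0.205 when AC CM replicates 2 and 3 were left out. That setting leaves 1 AC CM library, which is assumed to vary like the C CM libraries, here and for the genes below, so a call lost there says little about stability. Its partner in the catalytic ring, the alpha subunit gene Atp5a1, was at 438 ± 19.4 and 435 ± 1.63 CPM with a log2 fold change of -0.01 (SE 0.06, edgeR adjusted p = 0.927). Atp5c1, the gamma subunit of the central stalk, had 0.17 (SE 0.06, edgeR adjusted p = 0.0675). Atp5f1, subunit b of the outer stalk, was at 116, 136 and 130 CPM in C CM and 151, 153 and 149 CPM in AC CM. It rose by 0.24 (SE 0.07, edgeR adjusted p = 0.0348) with no overlap. The adjusted p no longer passed when C CM replicate 3 was left out (0.0613), without AC CM replicate 1 (0.103), 2 (0.115) or 3 (0.0928), and without AC CM replicates 2 and 3 together (0.378). Atp5f1 shares 337 exonic bases with Wdr77 on the opposite strand, and the sources used here do not say whether counting used strand.

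Atp5sl, the gene filed here under complex V by its symbol, was at 24.4, 20.3 and 21.9 CPM in C CM and 16.6, 16.03 and 17.1 CPM in AC CM. It fell by 0.42 on the log2 scale (SE 0.10, edgeR adjusted p = 0.0164), and the groups did not overlap. Without AC CM replicate 1 the adjusted p was 0.0557, without replicate 2 it was 0.0729, and without AC CM replicates 2 and 3 it was 0.266. The 3 genes for the c subunit of the proton-driven ring encode the same mature protein. Atp5g2 was at 138 ± 18.8 CPM in C CM and 117 ± 4.31 in AC CM (log2 fold change -0.25, SE 0.10, edgeR adjusted p = 0.0898), Atp5g3 at 94.3 ± 11.5 and 96.7 ± 1.14, and Atp5g1 at 43.1 ± 5.42 and 49.5 ± 1.56. Of the 17 genes of complex V, 2 were called higher, 1 lower and 14 were not called. The share called was 17.6%, against 26.5% of all genes tested. The summed level was 2034 ± 100 CPM in C CM and 2165 ± 45.7 in AC CM. The sums of the 3 AC CM libraries (2206, 2172 and 2116 CPM) lay above those of C CM (2098, 2086 and 1919 CPM). Atp5b alone went from 475 to 589 CPM on average, so much of this difference was that of 1 gene. Of the 17 genes, 10 had a positive and 7 a negative log2 fold change.

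**Figure D2:**
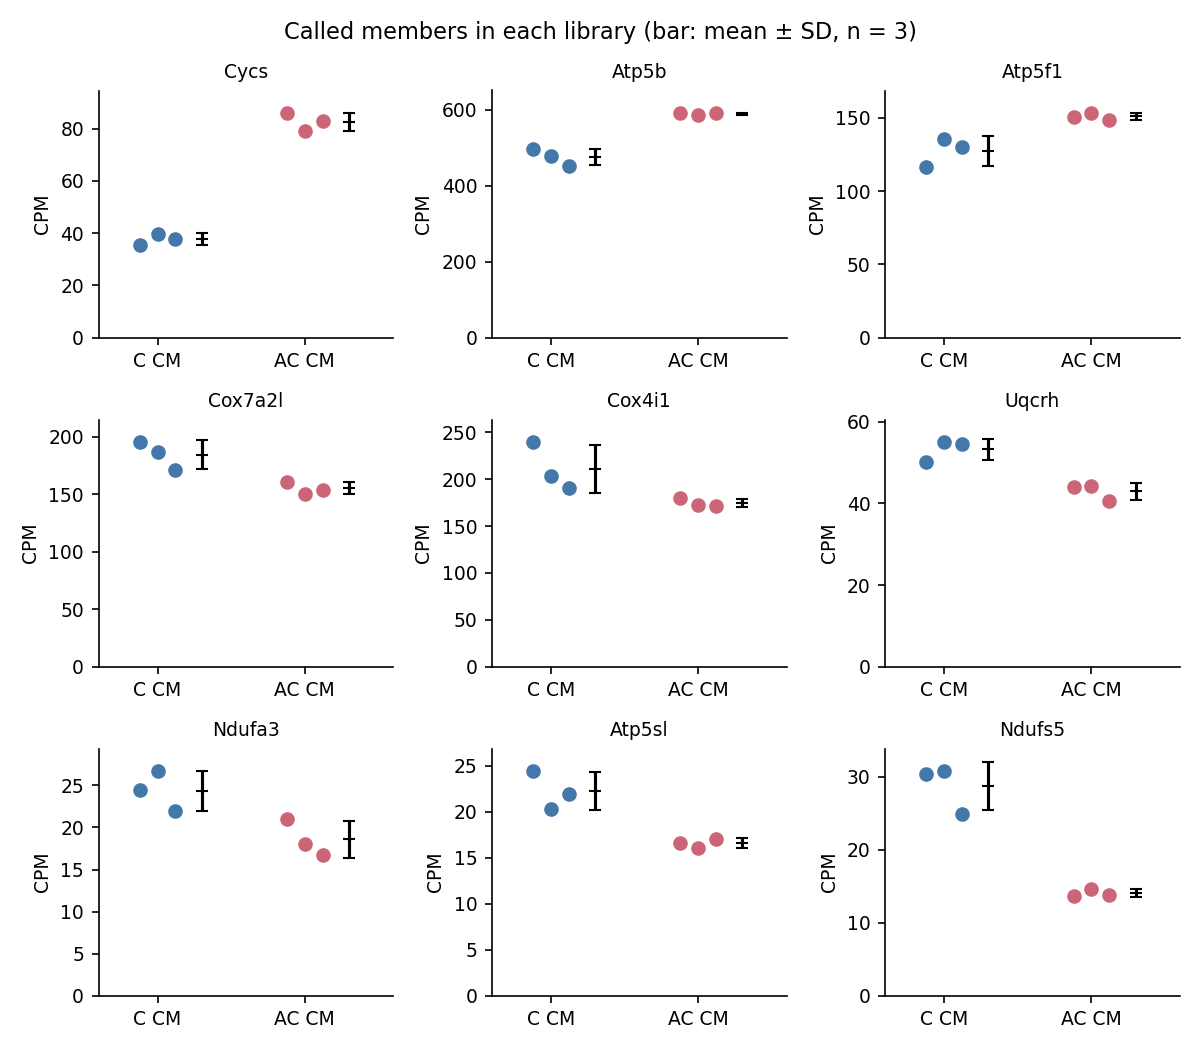
CPM of the 9 called genes in each library, with 3 points per group and the mean ± SD beside them; each vertical axis starts at 0. No panel shows overlap between C CM and AC CM, which also holds for 44.7% of all genes tested. The distance between groups is widest relative to the level in Cycs and Ndufs5.

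In complex I, which takes electrons from NADH, 2 of 37 genes were called, both lower (5.41%, against 13.3% of all genes tested). Ndufs5 encodes an accessory subunit on the intermembrane side. Its counts were 1992, 2107 and 1667 in C CM and 966, 1133 and 1098 in AC CM. The level fell from 28.7 ± 3.30 to 14.0 ± 0.525 CPM without overlap, a log2 fold change of -1.03 (SE 0.11, edgeR adjusted p = 0.000241). Ndufs5 lies on chromosome 4 from 123712710 to 123718202 on the minus strand, and its processed pseudogene BC002163 lies on chromosome 16 from 42955631 to 42955949 on the plus strand. The pair is printed because their counts moved in opposite directions. Of 318 aligned coding bases 2 differ, T81C and A105G, with Ndufs5 first and positions counted from the first base of the start codon. Bases 51 to 135 from GENCODE M21 transcripts follow, with the differing bases in capitals.
Ndufs5: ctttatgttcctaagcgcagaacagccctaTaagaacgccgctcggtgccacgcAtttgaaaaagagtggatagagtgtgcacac
BC002163: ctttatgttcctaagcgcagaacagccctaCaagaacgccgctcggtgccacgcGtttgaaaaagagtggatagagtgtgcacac
BC002163 had 31, 39 and 20 counts in C CM and 778, 853 and 723 in AC CM. The sum of both was 30.9, 31.4 and 25.2 CPM in C CM and 24.8, 25.7 and 22.8 CPM in AC CM. On this sum the groups overlapped, and the log2 fold change was -0.25 (SE 0.11, edgeR adjusted p = 0.12), so the call on Ndufs5 was lost. How reads of this pair were assigned is not given in the sources used here, and the value of either entry alone is uncertain.

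**Figure D3:**
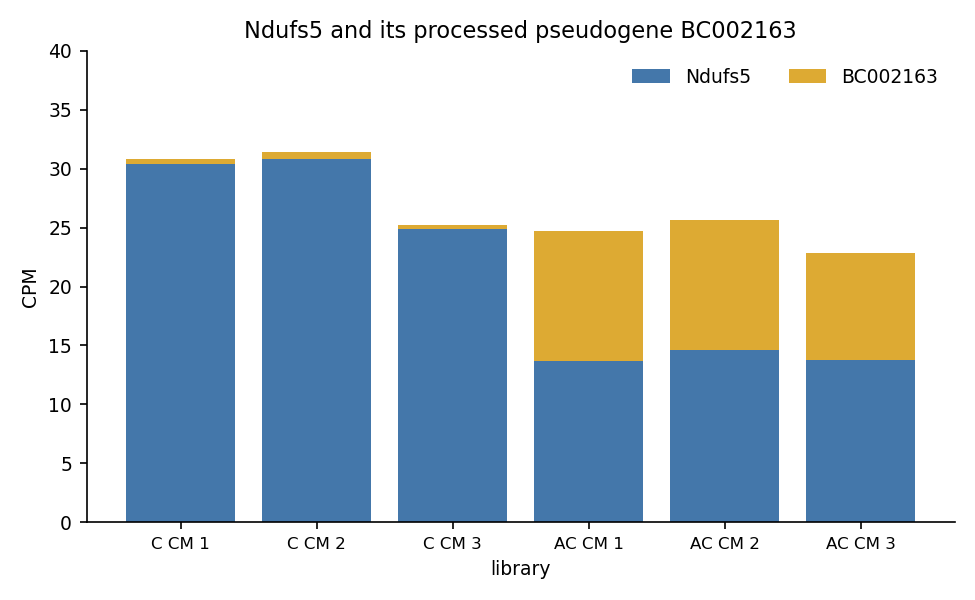
CPM of Ndufs5 (blue) and of its processed pseudogene BC002163 (yellow) stacked for each library. The blue part falls from 28.7 to 14.0 CPM on average while the full bars run from 25.2 to 31.4 CPM in C CM and from 22.8 to 25.7 CPM in AC CM.

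Ndufa3, a small membrane-arm subunit, was at 24.5, 26.7 and 21.9 CPM in C CM and 21.02, 18.01 and 16.7 CPM in AC CM. It fell by 0.39 on the log2 scale (SE 0.12, edgeR adjusted p = 0.0414), with the nearest libraries of the 2 groups under 1 CPM apart. The adjusted p was 0.0647 without C CM replicate 1, 0.133 without C CM replicate 2, 0.132 without AC CM replicate 2, 0.148 without AC CM replicate 3, and 0.568 without AC CM replicates 2 and 3. Ndufa3 shares 4 exonic bases with Tfpt on the opposite strand. Among the more abundant genes of the complex, Ndufs1, the large iron-sulfur subunit, had a log2 fold change of 0.17 (SE 0.08, edgeR adjusted p = 0.175) and Ndufa9 0.13 (SE 0.06, edgeR adjusted p = 0.174), and neither was called. Summed over the complex, the level was 1492 ± 117 CPM in C CM and 1453 ± 57.0 in AC CM.

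None of the 4 genes of complex II, which is also the succinate dehydrogenase of the citric acid cycle, was called. Sdha, the catalytic flavoprotein, was at 247, 281 and 276 CPM in C CM and 282, 268 and 269 CPM in AC CM, so the groups overlapped (log2 fold change 0.03, SE 0.07, edgeR adjusted p = 0.801). The iron-sulfur subunit gene Sdhb had -0.11 (SE 0.06, edgeR adjusted p = 0.216). The membrane anchors Sdhc and Sdhd had 0.12 (SE 0.06, edgeR adjusted p = 0.213) and -0.06 (SE 0.06, edgeR adjusted p = 0.501). Their summed level was 643 ± 15.1 CPM in C CM and 643 ± 14.4 in AC CM.

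In complex III, 1 of 9 genes was called, as lower (11.1%, against 13.3% of all genes tested). Uqcrh, the hinge protein that helps cytochrome c dock, was at 50.2, 55.0 and 54.5 CPM in C CM and 44.0, 44.3 and 40.6 CPM in AC CM, and fell by 0.31 on the log2 scale (SE 0.08, edgeR adjusted p = 0.0167). Without C CM replicate 2 the adjusted p was 0.053, without AC CM replicate 3 it was 0.0835, and without AC CM replicates 2 and 3 it was 0.335. Cyc1, the cytochrome c1 that passes electrons to cytochrome c, was at 63.4, 50.5 and 50.1 CPM in C CM and 65.4, 59.1 and 60.6 CPM in AC CM, with overlap (log2 fold change 0.17, SE 0.10, edgeR adjusted p = 0.255). The core proteins Uqcrc1 and Uqcrc2 had -0.07 (SE 0.08, edgeR adjusted p = 0.584) and 0.13 (SE 0.10, edgeR adjusted p = 0.383), and the Rieske protein gene Uqcrfs1 -0.02 (SE 0.08, edgeR adjusted p = 0.873).

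In complex IV, 15 of 18 genes could be tested and 2 were called, both lower (13.3%, the same share as over all genes tested). Cox4i1 encodes the common isoform of a regulatory subunit. It was at 240, 204 and 191 CPM in C CM and 180, 172 and 172 CPM in AC CM, and fell by 0.28 on the log2 scale (SE 0.09, edgeR adjusted p = 0.0462). The adjusted p was 0.0788 without C CM replicate 2, 0.0976 without AC CM replicate 1, 0.146 without AC CM replicate 2 and also without replicate 3, 0.459 without AC CM replicates 2 and 3, 0.0589 with no filter on low counts and 0.0543 without robust estimation. Cox4i1 shares 154 exonic bases with Emc8 on the opposite strand. Cox7a2l was at 196, 187 and 171 CPM in C CM and 161, 150 and 154 CPM in AC CM, and fell by 0.25 (SE 0.07, edgeR adjusted p = 0.0293). Its adjusted p was 0.0798 without C CM replicate 2, 0.0639, 0.125 and 0.107 without AC CM replicate 1, 2 or 3, and 0.465 without AC CM replicates 2 and 3.

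Isoforms of complex IV that are known from lung, muscle or testis were rare in these macrophages. Per kilobase of transcript, Cox4i1 was at 280 CPM in C CM and Cox4i2 at 1.199, Cox6a1 at 267 and Cox6a2 at 3.21, Cox6b1 at 186 and Cox6b2 at 1.97, and Cox7a2 at 71.9 and Cox7a1 at 1.82. These levels rest on the median length of annotated coding transcripts, which was chosen over the longest one after lengths were seen. None of the 4 rare isoforms was called. Cox8a was at 266 CPM per kilobase, whereas Cox8b had 4 counts in all and Cox8c none. Cox7b was at 60.9 CPM per kilobase and Cox7b2 had no count. Among the paralogs Ndufa4 and Ndufa4l2, the second of which is known as a hypoxia-responsive gene, the levels per kilobase were 119 and 4.003 CPM in C CM, and neither was called. Cox6a1 (log2 fold change -0.06, SE 0.15, edgeR adjusted p = 0.805) was not called either.

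**Figure D4:**
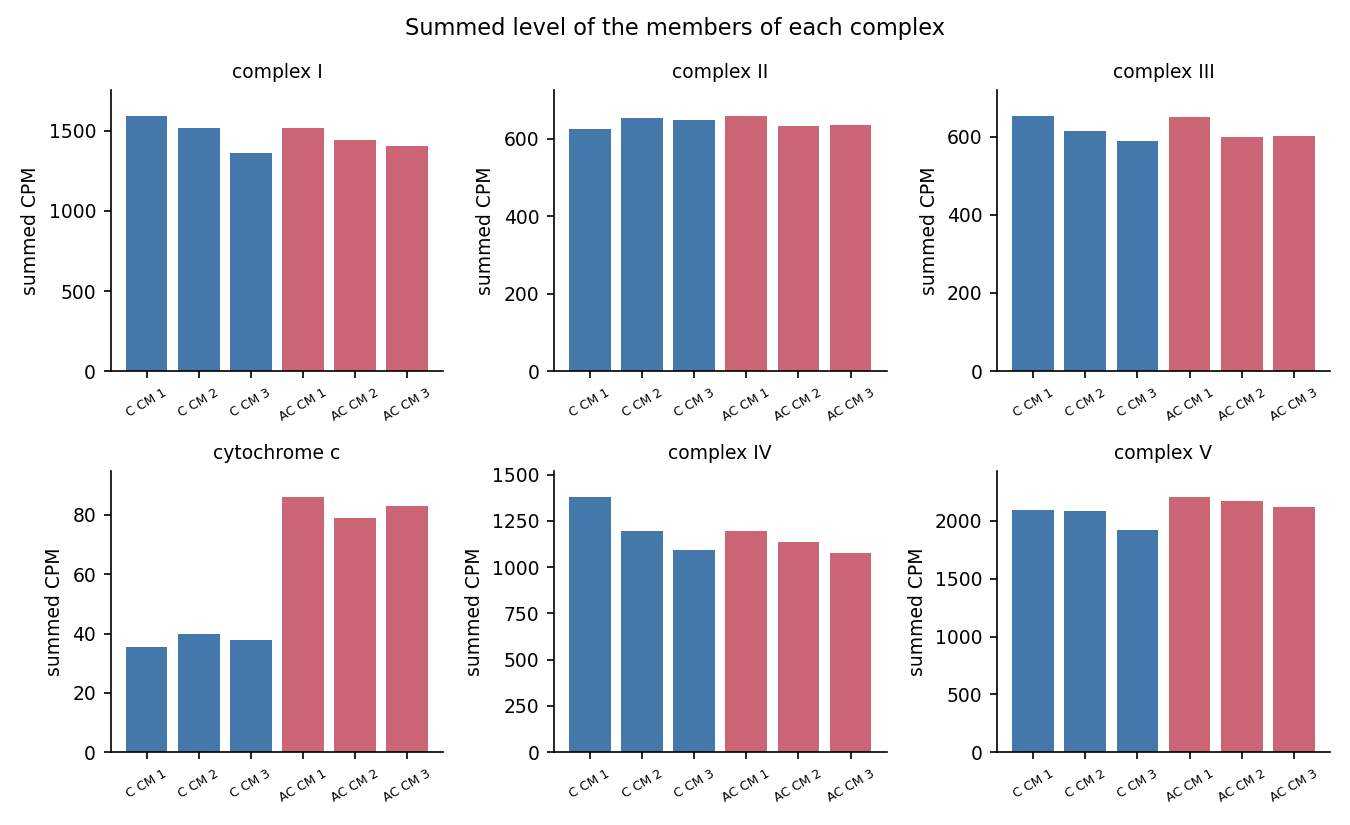
Summed CPM of the genes of each complex in each library, C CM in blue and AC CM in red, with vertical axes from 0. The groups do not overlap for cytochrome c and for complex V. For complex V the nearest libraries were close, with 2116 CPM in AC CM replicate 3 and 2098 CPM in C CM replicate 1. In complex V, Atp5b alone goes from 475 to 589 CPM on average. Complex II was 643 CPM on average in both groups.

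The libraries of C CM did not behave alike for these genes. Across genes of at least 10 CPM, replicate 1 was a median 1.17 times the mean of replicates 2 and 3 for 32 subunit genes with transcripts under 700 bases, 1.05 times for 45 with longer ones, and 0.989 times for all 9497 genes. The limit of 700 bases was set after these values were seen. Leaving out C CM replicate 1 raised the number of genes called higher from 3 to 9, with 5 lower. Leaving out C CM replicate 3 gave 3 higher and 12 lower, and leaving out C CM replicate 2 gave 4 and 2. Leaving out AC CM replicate 1 gave 2 higher and 3 lower, and leaving out either of AC CM replicates 2 and 3 gave 2 and 2. The 3 to 6 split therefore rests on which libraries enter, while Cycs was called in each of these fits.

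**Figure D5:**
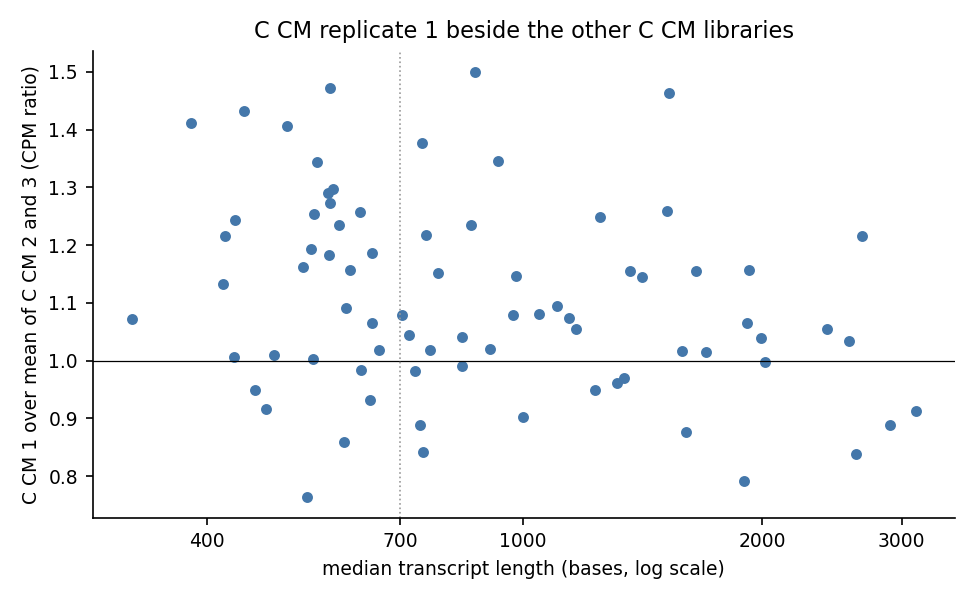
Ratio of C CM replicate 1 to the mean of C CM replicates 2 and 3 (CPM) against median transcript length on a log scale, 1 point per subunit gene of at least 10 CPM in C CM. The dotted line marks 700 bases; the median ratio was 1.17 to its left and 1.05 to its right.

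The other genes of the pathway were read from lists of related genes, to be set against the 26.5% of all genes tested that were called, 13.3% in each direction. Assembly factors build the complexes and are not part of them. For complex I, 1 of 15 tested was called higher and none lower (Tmem126b, 0.27, SE 0.09, edgeR adjusted p = 0.0473), with a median log2 fold change of 0.25 over the list against -0.005 over all genes. For complex III, 2 of 6 were called higher, Uqcc1 by 0.76 (SE 0.21, edgeR adjusted p = 0.0303) and Ttc19 by 0.44 (SE 0.14, edgeR adjusted p = 0.0439). For complex IV, 4 of 19 were called higher and none lower. Hccs was listed here although it attaches heme to cytochrome c rather than building complex IV. It rose from 21.4 ± 2.02 to 30.7 ± 1.604 CPM (log2 fold change 0.52, SE 0.10, edgeR adjusted p = 0.005). The copper chaperones Sco1 and Sco2 rose by 0.44 and 0.55, and Coa4 by 0.35. None of the 4 complex II factors was called. For complex V, Atpaf2 rose by 0.31 and Tmem70, at a log2 fold change of -0.78, fell from 33.0 ± 0.419 to 19.2 ± 0.655 CPM (SE 0.08, edgeR adjusted p = 0.00021).

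Against the same 13.3% in each direction over all genes, 3 of 13 genes of coenzyme Q synthesis were called higher and 1 lower. Pdss1, which starts the isoprenoid tail, rose by 1.09 (SE 0.21, edgeR adjusted p = 0.00547), Coq2 by 0.64 and Coq7 by 0.48. Coq8a, an atypical kinase that aids synthesis, went from 14.5 ± 2.15 to 5.32 ± 1.03 CPM (log2 fold change -1.44, SE 0.18, edgeR adjusted p = 0.000462). Of 7 genes for other electron donors to coenzyme Q, Dhodh, the pyrimidine synthesis enzyme, was called higher (0.41). Of 17 genes of mitochondrial biogenesis and mitochondrial DNA expression, 4 were called higher and none lower: Lrpprc, which stabilises mitochondrial mRNA, by 0.60 (SE 0.08, edgeR adjusted p = 0.000895), Tfb1m by 0.66, the coactivator gene Ppargc1b by 0.68 and Gabpb1 by 0.46. Of 13 genes of cytochrome c release and the apoptosome, 4 were called higher and 1 lower. Bcl2, which holds back cytochrome c release, rose from 10.2 ± 1.07 to 24.6 ± 1.32 CPM (log2 fold change 1.27, SE 0.11, edgeR adjusted p = 8.68e-05), and Opa1 and Htra2 rose by 0.28 and 0.33. Mcl1 fell by 0.24 on the log2 scale. Of 9 genes of ATP and phosphate exchange, the outer membrane channels Vdac1, Vdac2 and Vdac3 rose by 0.22, 0.36 and 0.37, and Ucp2, an inner membrane carrier, fell by 0.37. The 13 mitochondrially encoded subunits, which complete complexes I, III, IV and V, were at 0 in every library, as were all 37 mitochondrially encoded genes of the table, and were not analysed here.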

How the data were processed

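The analysis used 6 libraries, 3 per group, and a single table. The authors deposited whole-number read counts per gene, which are not normalized. They also deposited a signal per library, equal to counts divided by a constant, and their own log2 fold changes and p-values, which were only read. The submitters' processing notes name HISAT2 2.1.0 and fastp 0.17.1, and also R 3.4.3 with DESeq2 1.18.1, without their roles. For the counting program, its strand setting and the annotation, nothing is given in the sources used here. The table's own coordinates are printed, and 69 of 86 genes have exactly those of GENCODE M21 (GRCm38).

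Counts were filtered with filterByExpr, scaled by TMM and tested with edgeR 4.0.16 (robust quasi-likelihood, R 4.3.3), group as the only term, with Benjamini-Hochberg adjustment. DESeq2 1.42.0, limma-voom (limma 3.58.1) and 19 further settings were alternatives. The procedure was tested on simulated data, where the share of false calls lay above the nominal level, with or without robust estimation. Recovery of changes as small as those of most subunit genes was not tested.

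Copies were found with blastn 2.17.0 at 95% identity over 90% of the coding stretch. Promoters are from RefSeq (GRCm38.p6). Tables and plots were made with matplotlib 3.10.9, numpy 2.4.6 and pandas 2.3.3 under Python 3.11.15. The genes and lists were chosen with earlier results of these data known. Genes named are those called, the 3 most counted of each complex, isoform sets, the Sdh genes, Cyc1, Cycs and Ndufs5, and up to 4 of each related list. Ndufa11, Ndufb6, Cox5a and the copies were named after their values were seen. A few genes that this rule names are left out of the text.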

Additional observations from a re-analysis of the deposited data

How the results depend on the processing

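The counts of 3 genes called higher and 6 lower depend on the libraries more than on the scaling. DESeq2 called 10 lower and the replicate block 11. Leaving out single replicates gave 2 to 9 higher and 2 to 12 lower, and without AC CM replicates 2 and 3, 1 and 1; there AC CM is 1 library, assumed to vary like C CM, so this count says little about stability. Over all genes the number called ran from 3158 to 5023 with 1 library left out, and was 1274 without AC CM replicates 2 and 3, against 4741. The median log2 fold change of the subunit genes lay between -0.08 and 0.05 under all 21 alternatives. Same-numbered libraries correlated at -0.116, -0.0306 and -0.0135 in their deviations, so the replicate numbers were not taken as pairs.

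Of the 21 alternatives, 4 were chosen after seeing the data. The rule for copies was settled on after looser ones had been tried and their matches seen: 94 copies at 90% identity over 50% of the coding stretch, 91 when 50% of the copy was also required, and 41 under the rule used. All 3 rules gave 3 genes higher and 5 lower and lost the call on Ndufs5. The fit without robust estimation was added after the test on simulated counts and gave 3 and 5. A gene that was not called is not shown to be unchanged.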
